A study of Homo sapiens with 8 samples.

Results

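The expression of 9 genes known as androgen targets in prostate cells was followed in U87MG cells, an established human glioblastoma line, during exposure to enzalutamide. The genes were FKBP5, ELL2, ZBTB10, SLC45A3, STEAP2, ABCC4, ACSL3, TPD52 and HERC3. They were matched by symbol among the 23368 gene names of the deposited count files, and all 9 were among the 14448 genes with enough counts to be tested. They were picked as genes known as androgen targets in prostate cells, with earlier results of these data known. The study holds 8 RNA-seq libraries in 4 groups, 2 untreated control libraries and 2 each after 4, 24 and 48 h of the drug. The labels give no dose and no vehicle, and no time for the untreated libraries. A difference from control therefore holds the drug together with anything else that set the dishes apart. Whether the 2 libraries of a group stem from different dishes is not stated, so each p-value sets a change against variation between libraries that could be purely technical. The labels also place the harvest after a differentiation step that they describe nowhere else.

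The androgen receptor is a transcription factor that stays in the cytoplasm with heat shock proteins until it binds testosterone or dihydrotestosterone. It then enters the nucleus, binds DNA elements built from a pair of inverted half-sites, and raises or lowers the transcription of nearby genes. Enzalutamide is a drug against prostate cancer that competes with androgen for the receptor and hinders its entry into the nucleus and its binding to DNA. In prostate cells, androgen raises the transcripts of these genes. The glucocorticoid and mineralocorticoid receptors recognise closely related elements, and FKBP5 in particular is also induced by glucocorticoids.

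The libraries held between 24620833 counts (4 h replicate 1) and 37162565 counts (24 h replicate 1). Levels are CPM, the usual count relative to library total, with totals scaled by TMM factors of 0.87 to 1.08, and the 48 h libraries had the lowest factors. Vimentin, CD44, fibronectin, nestin and tenascin C, listed as genes of a glioblastoma line with mesenchymal traits, together held 13086 to 25192 CPM. The sum was highest in the 48 h libraries. Nestin made up little of it and went the other way, from a mean of 26.1 CPM in control to 12.1 CPM at 48 h. The glial lineage genes GFAP, S100B, SOX2 and OLIG2 summed to 1.85 to 2.95 CPM, and CDKN2A and MTAP, which lie in a region deleted from this line, to 0 to 0.0588 CPM. Markers of immune cells reached 0.4 CPM in sum and markers of endothelial cells 1.2 CPM, so both were close to undetected. Epithelial markers summed to 4.81 to 11.1 CPM and neuronal ones to 3.68 to 7.78 CPM. In bulk RNA, a change in transcripts per cell and a change in the share of cells that make them cannot be told apart. Both 48 h libraries stood apart from the other 6 along the first principal component, which carried 65.8% of the variance.

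The 9 genes did not move as a block. SLC45A3 and STEAP2, which encode membrane proteins of prostate cells, were far lower at 48 h. TPD52 was higher at all 3 times and ACSL3 at 48 h. HERC3 was lower at 4 h, higher at 24 h and lower again at 48 h. FKBP5, the gene most often used as a readout of steroid receptor activity, was higher at 24 h and was not called at 4 h or at 48 h. ZBTB10 was called in no comparison.

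Sequence upstream of the genes is shown for FKBP5, HERC3 and SLC45A3, since FKBP5 and HERC3 both peaked at 24 h while SLC45A3 had the largest fall of the 9. RefSeq promoter windows, which run from 250 bases before to 50 bases after a gene's start in GRCh38.p14, were found for 6 of the 9 genes and gave 9 windows. The androgen response element was searched as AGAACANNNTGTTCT, which reads the same on both strands, and its half-site as AGAACA on either strand. Capitals mark a half-site, and sequences run 5′ to 3′ on the gene's own strand.
FKBP5, upstream start, chr6:35728534-35728833, minus strand: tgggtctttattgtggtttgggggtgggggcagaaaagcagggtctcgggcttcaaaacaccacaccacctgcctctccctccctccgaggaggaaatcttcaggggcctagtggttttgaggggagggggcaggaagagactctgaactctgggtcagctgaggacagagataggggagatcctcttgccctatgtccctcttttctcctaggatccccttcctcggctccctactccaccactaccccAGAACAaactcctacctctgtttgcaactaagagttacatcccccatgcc
FKBP5, downstream start, chr6:35688866-35689165, minus strand: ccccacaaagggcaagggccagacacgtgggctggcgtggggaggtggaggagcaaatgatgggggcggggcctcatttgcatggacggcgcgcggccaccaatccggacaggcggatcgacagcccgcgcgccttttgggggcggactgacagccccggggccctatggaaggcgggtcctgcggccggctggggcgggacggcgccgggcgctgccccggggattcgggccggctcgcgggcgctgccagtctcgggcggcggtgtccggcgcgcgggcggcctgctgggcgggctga
HERC3, upstream start, chr4:88523593-88523892, plus strand: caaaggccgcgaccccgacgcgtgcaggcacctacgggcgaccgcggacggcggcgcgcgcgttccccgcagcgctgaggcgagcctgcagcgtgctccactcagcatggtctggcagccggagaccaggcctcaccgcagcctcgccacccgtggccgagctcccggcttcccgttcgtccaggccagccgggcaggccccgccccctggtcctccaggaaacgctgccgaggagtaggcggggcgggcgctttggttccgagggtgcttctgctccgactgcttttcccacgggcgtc
SLC45A3, chr1:205680460-205680759, minus strand: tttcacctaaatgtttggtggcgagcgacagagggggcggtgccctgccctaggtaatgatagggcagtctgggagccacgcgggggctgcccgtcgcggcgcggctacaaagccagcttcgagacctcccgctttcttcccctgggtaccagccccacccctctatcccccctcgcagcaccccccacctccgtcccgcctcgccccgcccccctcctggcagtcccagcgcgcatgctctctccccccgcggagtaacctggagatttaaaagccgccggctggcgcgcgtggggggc

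The half-site occurred once among the 9 windows, at the upstream start of FKBP5, and began on the annotated start itself. Over all 35116 RefSeq windows of that length, 14.8% held at least 1 half-site on either strand. The full element was in none of the 9 windows and in 1 window of the whole set. Allowing up to 2 differences in its 12 fixed letters also gave no match in the 9 windows, against 1.41% of the whole set. These are letter matches in a short window, and they say nothing of elements in introns or farther away. The windows differed in base composition. G and C made up 55.7% of the upstream FKBP5 window and 76% of the downstream one. They made up 73.3% of the upstream HERC3 window, 71.7% of its downstream one, which is not printed here, and 69% of the SLC45A3 window. The median over all windows was 58.7%.

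**Figure D1:**
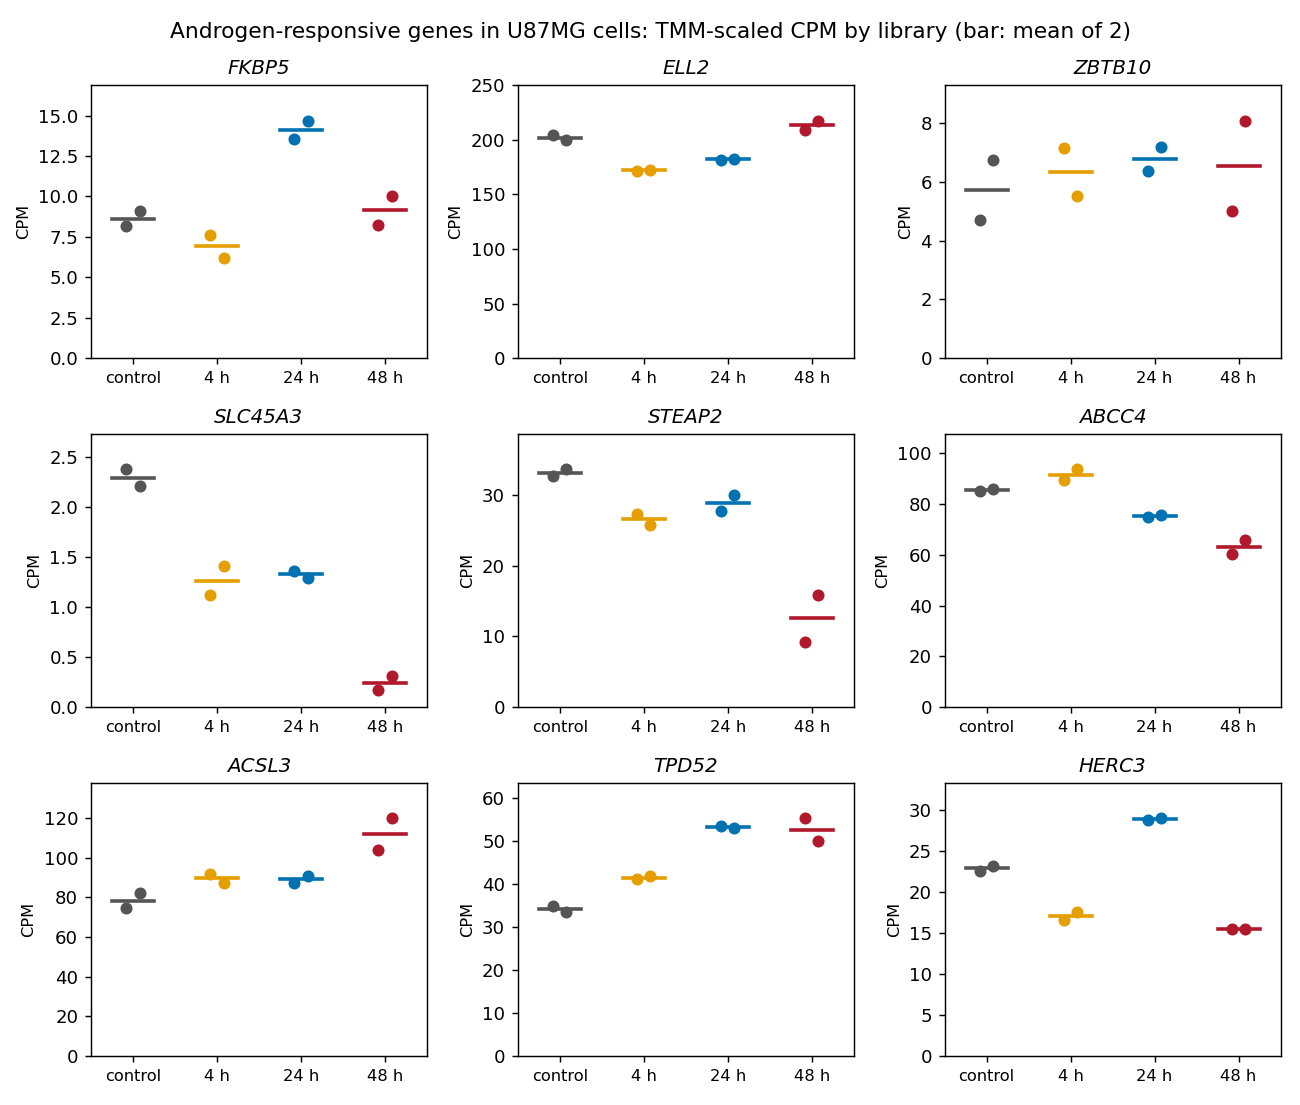
TMM-scaled CPM (y axis, from 0) of the 9 genes in the 8 libraries, by group (x axis); each point is 1 library and each bar the mean of 2. SLC45A3 and STEAP2 are lowest at 48 h, FKBP5 and HERC3 are highest at 24 h, and the points of ZBTB10 overlap between groups.

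Per kilobase of exon, ELL2 was the most abundant of the 9 genes in every group, at 35.3 CPM per kb at 48 h and 33.4 CPM per kb in control. ACSL3 came next in every group (13.8 CPM per kb in control), close to ABCC4 in control (13.7 CPM per kb). TPD52 stood at 6.97, STEAP2 at 4.62 and HERC3 at 3.6 CPM per kb in control. FKBP5 (0.812), SLC45A3 (0.688) and ZBTB10 (0.56) were the least abundant. At 48 h the order had shifted in a few places. TPD52 (10.7 CPM per kb) stood above ABCC4 (10.1), HERC3 (2.44) above STEAP2 (1.75), and SLC45A3 was last at 0.0718 CPM per kb. Exon lengths came from GENCODE and ranged from 3.34 kb for SLC45A3 to 10.6 kb for FKBP5. They sum all annotated exons, so genes with long, rarely used exons look lower than they are.

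FKBP5 encodes a co-chaperone that joins HSP90 on steroid receptors before they bind hormone. Its level was 8.16 and 9.09 CPM in control, 7.64 and 6.21 CPM at 4 h, 13.5 and 14.7 CPM at 24 h, and 8.24 and 10.0 CPM at 48 h. Both 24 h libraries lay above all others, both 4 h libraries lay below both controls, and the 48 h libraries overlapped the controls. At 24 h FKBP5 rose 1.64-fold over control (log2 change 0.71, SE 0.14, adjusted p = 0.00462, edgeR's quasi-likelihood test with Benjamini-Hochberg adjustment over all 14448 genes, as for every adjusted p below). At 4 h its log2 change was -0.33 (SE 0.15, adjusted p = 0.131), with a 95% interval of -0.66 to 0.01. At 48 h the log2 change was 0.08 (95% interval -0.24 to 0.41, adjusted p = 0.632), and its sign turned with scaling by library totals alone (-0.19). From one time to the next, FKBP5 was 2.05-fold higher at 24 h than at 4 h (log2 change 1.04, SE 0.15, adjusted p = 0.000215) and lower at 48 h than at 24 h (log2 change -0.63, SE 0.14, adjusted p = 0.0022). Leaving out control replicate 1 brought the 24 h change to 0.64 (adjusted p = 0.0589), and leaving out 24 h replicate 2 brought it to 0.65 (adjusted p = 0.0517), so either omission ended the call.

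ELL2 encodes an elongation factor that helps RNA polymerase II past pausing. It held 204 and 199.8 CPM in control, 172 and 173 CPM at 4 h, 181 and 183 CPM at 24 h, and 209 and 217 CPM at 48 h. The groups did not overlap, with 4 h lowest and 48 h highest. At 4 h ELL2 fell by 14.8% relative to control (log2 change -0.23, SE 0.06, adjusted p = 0.0112). Without any 1 of the 4 libraries compared, the adjusted p was 0.0524 to 0.0831 and the log2 change -0.25 to -0.22. At 24 h the log2 change was -0.15 (95% interval -0.27 to -0.03, adjusted p = 0.0802), which passed the threshold without 48 h replicate 1 (adjusted p = 0.0255) or 48 h replicate 2 (adjusted p = 0.025), and with DESeq2 size factors (adjusted p = 0.0438). At 48 h it was 0.08 (95% interval -0.05 to 0.20, adjusted p = 0.239). Scaled by library totals, the 48 h change turned to -0.20 (adjusted p = 0.0113).

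ZBTB10, a zinc finger repressor of transcription, was the least abundant of the 9 per exon length in control. Its level was 4.7 and 6.73 CPM in control, 7.16 and 5.5 CPM at 4 h, 6.35 and 7.2 CPM at 24 h, and 5.0 and 8.08 CPM at 48 h. The groups overlapped, and the spread within a group was as wide as the spread between groups. Its log2 changes from control were 0.14 at 4 h, 0.24 at 24 h and 0.19 at 48 h, with adjusted p of 0.72, 0.507 and 0.493. The 95% intervals, -0.40 to 0.67, -0.28 to 0.76 and -0.34 to 0.72, each include the change called for TPD52 at 24 h, so the data do not show that ZBTB10 kept its level.

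Among the membrane proteins, SLC45A3 encodes prostein, a transporter-like protein that is strongly restricted to prostate in normal tissue. It held 84 and 77 counts in control, 28 and 48 counts at 4 h, 52 and 44 counts at 24 h, and 5 and 9 counts at 48 h. In the same order of groups these were 2.38 and 2.22 CPM, 1.12 and 1.41 CPM, 1.37 and 1.29 CPM, and 0.17 and 0.309 CPM. Both controls lay above every treated library, the 4 and 24 h libraries overlapped, and the 48 h libraries lay below all others. At 48 h SLC45A3 fell 9.46-fold relative to control (log2 change -3.24, SE 0.35, adjusted p = 8.51e-06), from counts too few to fix the size closely (upper end of the 95% interval -2.48). Only 1.06% of the tested genes had a lower log2 change at 48 h. It was already lower at 4 h (log2 change -0.84, SE 0.26, adjusted p = 0.0318) and at 24 h (-0.79, SE 0.25, adjusted p = 0.0449). Both early calls were lost in DESeq2 (adjusted p = 0.0965 and 0.125). They were also lost without any 1 of the libraries compared (adjusted p 0.0718 to 0.167 at 4 h and 0.13 to 0.203 at 24 h), and the 24 h call without 4 h replicate 1 (adjusted p = 0.0569) or replicate 2 (adjusted p = 0.0572).

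STEAP2 is a metalloreductase that passes electrons to iron and copper at membranes. It stood at 32.7 and 33.6 CPM in control, 27.4 and 25.8 CPM at 4 h, 27.8 and 30.0 CPM at 24 h, and 9.16 and 15.9 CPM at 48 h. Every treated library lay below both controls, and the 48 h libraries differed from each other more than those of any other group. At 48 h STEAP2 fell 2.65-fold relative to control (log2 change -1.40, SE 0.18, adjusted p = 3.88e-05), by 1.05 on the log2 scale without 48 h replicate 1 and by 1.85 without 48 h replicate 2. At 4 h the log2 change was -0.32 (95% interval -0.70 to 0.06, adjusted p = 0.189) and at 24 h -0.20 (95% interval -0.57 to 0.17, adjusted p = 0.444). The wide spread of the 48 h libraries enters these tests. Without both 48 h libraries the adjusted p was 0.00364 at 4 h and 0.0316 at 24 h, and without 48 h replicate 1 or 2 alone it was 0.00374 or 0.00401 at 4 h, and 0.055 or 0.0576 at 24 h.

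ABCC4, or MRP4, exports cyclic nucleotides, steroid conjugates and drugs from cells. Its level was 85.1 and 86.1 CPM in control, 89.4 and 93.7 CPM at 4 h, 75.0 and 75.9 CPM at 24 h, and 60.2 and 65.8 CPM at 48 h. The 4 groups did not overlap, and the level was highest at 4 h and lowest at 48 h. At 48 h it fell by 26.4% relative to control (log2 change -0.44, SE 0.07, adjusted p = 0.000152). At 4 h the log2 change was 0.10 (95% interval -0.05 to 0.25, adjusted p = 0.315) and at 24 h -0.18 (95% interval -0.33 to -0.03, adjusted p = 0.0754). The 24 h change was called with DESeq2 size factors (adjusted p = 0.0457), with library totals (adjusted p = 0.0362) and without 48 h replicate 1 or replicate 2 (adjusted p = 0.015 for each).

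ACSL3 activates long-chain fatty acids to their coenzyme A esters and takes part in forming lipid droplets. It held 74.5 and 82.1 CPM in control, 91.7 and 87.4 CPM at 4 h, 87.3 and 90.8 CPM at 24 h, and 104 and 119.9 CPM at 48 h. Every treated library lay above both controls, with the 48 h libraries highest and the 4 and 24 h libraries overlapping. At 48 h ACSL3 rose 1.43-fold over control (log2 change 0.52, SE 0.08, adjusted p = 0.000176). At 4 and 24 h the log2 changes were 0.19 in both cases (95% intervals 0.01 to 0.37 and 0.01 to 0.36, adjusted p = 0.1 and 0.129). Without 48 h replicate 1 or replicate 2, these early changes passed the threshold, with adjusted p = 0.0167 for each at 4 h and 0.0215 for each at 24 h.

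TPD52 encodes a coiled-coil protein of vesicle traffic whose gene is often amplified in prostate and breast cancer. Its level was 34.8 and 33.6 CPM in control, 41.2 and 41.9 CPM at 4 h, 53.4 and 53.1 CPM at 24 h, and 55.3 and 50.1 CPM at 48 h. All treated libraries lay above both controls, and the 24 and 48 h libraries overlapped each other. TPD52 rose 1.21-fold at 4 h (log2 change 0.28, SE 0.08, adjusted p = 0.0181), 1.56-fold at 24 h (0.64, SE 0.08, adjusted p = 0.000166) and 1.54-fold at 48 h (0.62, SE 0.08, adjusted p = 2.31e-05). The 4 h call was lost without any 1 of the 4 libraries compared (adjusted p 0.0675 to 0.122), while the later calls held in all 8 fits that left out a library. It was the only one of the 9 genes called in 1 direction at all 3 times besides SLC45A3, which was lower at each.

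HERC3 encodes a ubiquitin ligase of the HECT family. It held 22.6 and 23.2 CPM in control, 16.6 and 17.6 CPM at 4 h, 28.8 and 29.1 CPM at 24 h, and 15.6 and 15.5 CPM at 48 h. The groups did not overlap, and the replicates of each group lay within 1 CPM of each other. HERC3 fell at 4 h (log2 change -0.42, SE 0.09, adjusted p = 0.00467), rose at 24 h (0.34, SE 0.08, adjusted p = 0.0154) and fell at 48 h (-0.56, SE 0.09, adjusted p = 0.000168) relative to control. The 4 and 48 h calls held in all 8 fits that left out a library. The 24 h call was lost without any 1 of the 4 libraries compared (adjusted p 0.0718 to 0.115). GENCODE places another gene over part of the exons of HERC3 and TPD52 on the same strand, and of ELL2 and ZBTB10 on the opposite one. The overlaps cover 877 bases in TPD52, 321 in HERC3, 594 in ZBTB10 and 36 in ELL2. None of these overlapping genes is listed in the files. Reads in the same-strand overlaps cannot be told apart from those of the genes described. For the opposite strand this depends on how strand was treated, which is not known.

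**Figure D2:**
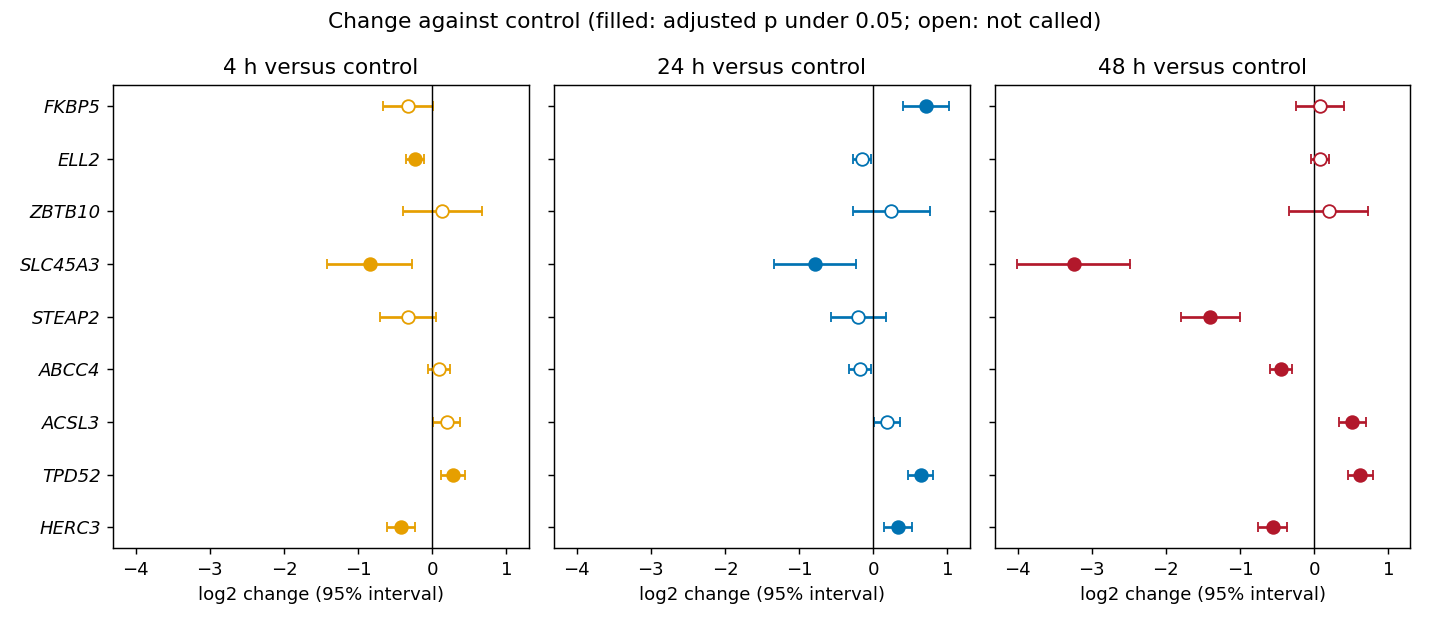
Log2 change (x axis) of each of the 9 genes (rows) against control at 4, 24 and 48 h; points are edgeR estimates from 2 libraries a group, bars are 95% intervals and filled points have an adjusted p under 0.05. The largest change is that of SLC45A3 at 48 h, at -3.24, and the intervals of ZBTB10 include 0 at each time.

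Counted together, 1 of the 9 genes was higher (TPD52) and 3 were lower (SLC45A3, HERC3 and ELL2) at 4 h than in control, where 15% of all tested genes were called higher and 13.6% lower. At 24 h, 3 were higher (FKBP5, TPD52 and HERC3) and 1 was lower (SLC45A3), beside 12.9% and 9.39% of all tested genes. At 48 h, 2 were higher (TPD52 and ACSL3) and 4 lower (SLC45A3, STEAP2, HERC3 and ABCC4), beside 33.3% and 33.5% of all tested genes. The share of the 9 genes called in either direction was 44.4% at 4 h, 44.4% at 24 h and 66.7% at 48 h, and with so few genes a difference of 1 or 2 from the background is no result about them. Their median log2 change was -0.23 at 4 h, 0.19 at 24 h and 0.08 at 48 h, beside -0.004, 0.01 and -0.02 over all tested genes. Their median size of change, 0.28, 0.24 and 0.52 on the log2 scale, was near the 0.22, 0.19 and 0.52 of all tested genes. Without any 1 of the 4 libraries compared, 1 gene (HERC3, lower) stayed called at 4 h, and 1 or 2 (TPD52, and FKBP5 without control replicate 2 or 24 h replicate 1) at 24 h. Without both 48 h libraries, 8 of the 9 were called at 24 h, 4 in each direction, and 6 at 4 h. Calls in the other androgen-responsive list described below rose as well, from 26 to 34 at 24 h and from 39 to 48 at 4 h. The share of all tested genes called in that fit was not counted, so these numbers are no result about the 9 genes. Scaling by library totals or by DESeq2 size factors gave 3 higher and 3 lower at 24 h. With library totals the median of all tested genes shifted by -0.28 at 48 h, and the members were 2 higher and 5 lower.

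The comparisons with control share the same 2 control libraries. The changes between treatment times do not set a level against them, but the control libraries enter the shared estimate of the spread. At 24 h relative to 4 h, FKBP5, HERC3 and TPD52 were higher and ABCC4 was lower, beside 21.2% of all tested genes called higher and 20.3% called lower. HERC3 rose 1.69-fold (log2 change 0.75, SE 0.09, adjusted p = 4.86e-05) and TPD52 1.28-fold (0.36, SE 0.07, adjusted p = 0.00283). ABCC4 fell (log2 change -0.28, SE 0.07, adjusted p = 0.00671), a call that was lost without 4 h replicate 2 (adjusted p = 0.0716), 24 h replicate 1 (0.0616) or 24 h replicate 2 (0.0508). At 48 h relative to 24 h, 5 genes were lower and 2 higher, beside 35.3% of all tested genes called lower and 31.5% called higher. The lower ones were SLC45A3 (log2 change -2.45, SE 0.37), STEAP2 (-1.20, SE 0.18), HERC3 (-0.90, SE 0.09), FKBP5 (-0.63, SE 0.14) and ABCC4 (-0.26, SE 0.07), with adjusted p between 3.91e-06 and 0.0057. ACSL3 (0.33, SE 0.08, adjusted p = 0.00362) and ELL2 (0.23, SE 0.06, adjusted p = 0.00388) were the higher ones. Neither was called with library totals as the only scaling (adjusted p = 0.258 and 0.848), where 6 genes were lower and TPD52 joined them (log2 change -0.23, adjusted p = 0.0141).

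NR3C1, the glucocorticoid receptor, stood at 17.7 CPM per kb in control, above every one of the 9 genes but ELL2. It averaged 190 ± 5.2 CPM at 4 h and 145 ± 4.26 CPM in control (SD, n = 2 libraries each, log2 change 0.38, SE 0.10, adjusted p = 0.0126). The 48 h libraries of NR3C1 lay apart, at 149 and 191 CPM. NR3C2, the mineralocorticoid receptor, was lower at 4 h (log2 change -0.90, SE 0.19, adjusted p = 0.00453) and higher at 48 h (0.95, SE 0.16, adjusted p = 0.000349). Neither NR3C1 nor NR3C2 was called against control at 24 h, the time at which FKBP5 was called. PGR, the progesterone receptor, had at most 0.0681 CPM in any library.

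Several luminal prostate genes were at or near 0. KLK3, which encodes prostate-specific antigen and is the best known androgen target, had no count in any of the 8 libraries. KLK2 had at most 3 counts and TMPRSS2 at most 1 in a library. ACPP, prostatic acid phosphatase, was lower at 4 h (log2 change -1.39, SE 0.13), higher at 24 h (0.46, SE 0.11) and lower at 48 h (-0.28, SE 0.12), with adjusted p of 1.97e-05, 0.0129 and 0.0493. Like HERC3, ACPP was thus called lower, higher and lower again. The 48 h call of ACPP lay just under the threshold and was not followed in other fits. The 24 h call of HERC3 did not hold when a library compared was left out. STEAP1, a relative of STEAP2, was lower at 4 h (log2 change -0.29, SE 0.08, adjusted p = 0.0175) and 48 h (-0.50, SE 0.08, adjusted p = 0.000186). TRPM8, a cold-sensing channel, stayed between 0.825 and 1.41 CPM.

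**Figure D3:**
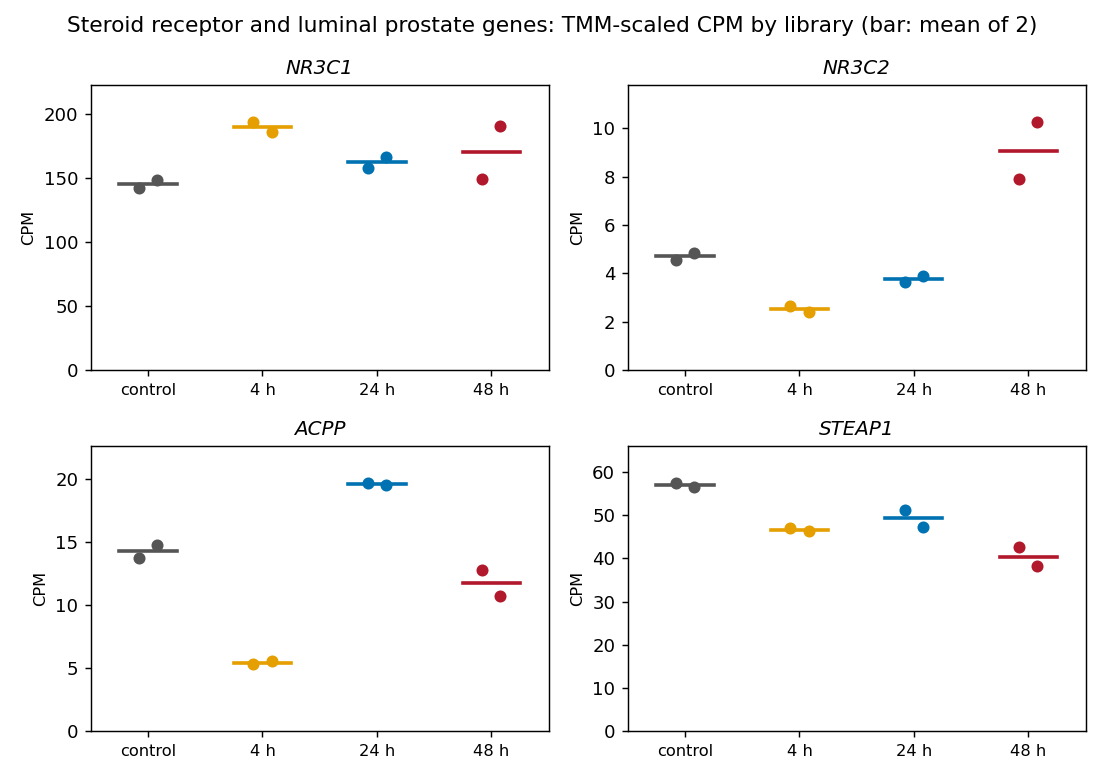
TMM-scaled CPM (y axis, from 0) of 2 steroid receptor genes and 2 luminal prostate genes in the 8 libraries, by group (x axis); each point is 1 library and each bar the mean of 2. NR3C2 is lowest at 4 h and highest at 48 h, and ACPP is lowest at 4 h and highest at 24 h.

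A wider list of 104 other androgen-responsive genes, written from general knowledge but with earlier results of these data known, was set beside the 9 genes. It includes some of the luminal prostate genes, and shares SGK1 with the glucocorticoid list described further on. Of these, 92 were tested. Those called higher numbered 28 at 4 h, 19 at 24 h and 41 at 48 h, and those called lower 11, 7 and 25, which together is 42.4%, 28.3% and 71.7% called. Among all tested genes, higher calls made up 15% at 4 h, 12.9% at 24 h and 33.3% at 48 h, and lower calls 13.6%, 9.39% and 33.5%. In the list, higher calls outnumbered lower ones by 28 to 11 at 4 h, 19 to 7 at 24 h and 41 to 25 at 48 h. Among all tested genes the higher and lower shares were nearly equal at 48 h. Whether the split of the list differed from that of all tested genes was not tested. The median log2 changes of the listed genes were -0.0006, 0.06 and 0.12, beside the -0.004, 0.01 and -0.02 of all tested genes. Scaled by library totals, the split became 13 higher and 9 lower at 24 h, and at 48 h it turned to 26 higher and 39 lower. Leaving out a library brought the called number to between 23 and 49 at 4 h and between 12 and 37 at 24 h.

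By the smallest p, the rises at 4 h included those of PMEPA1, a brake on TGF-beta and androgen signalling (log2 change 2.59, SE 0.09), INSIG1, which restrains sterol synthesis (1.32, SE 0.07), and the scaffold gene AKAP12 (1.41, SE 0.09). TNFAIP8 (log2 change -0.86, SE 0.10), SMS (-0.37, SE 0.06), NCAPD3 (-0.47, SE 0.08) and PIAS1 (-0.45, SE 0.08) led the falls. At 24 h the condensin gene NCAPD3 (0.86, SE 0.08), the desaturase gene FADS1 (0.60, SE 0.07) and the centromere gene CENPN (0.75, SE 0.09) rose. ALDH1A3 (-0.53, SE 0.06), INSIG1 (-0.40, SE 0.07), KRT8 (-0.96, SE 0.16) and LRIG1 (-0.40, SE 0.07) fell. At 48 h the kinase gene SGK1 rose 5.07-fold, the protease gene ADAMTS1 4.75-fold, SAT1 2.88-fold and DNAJB9 2.83-fold. SLC26A2 fell 6.44-fold, the signal peptidase gene SPCS3 5.48-fold, PMEPA1 3.69-fold and ALDH1A3 2.58-fold. PMEPA1 was thus higher at 4 h and lower at 48 h, while SLC45A3 was lower at both times.

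**Figure D4:**
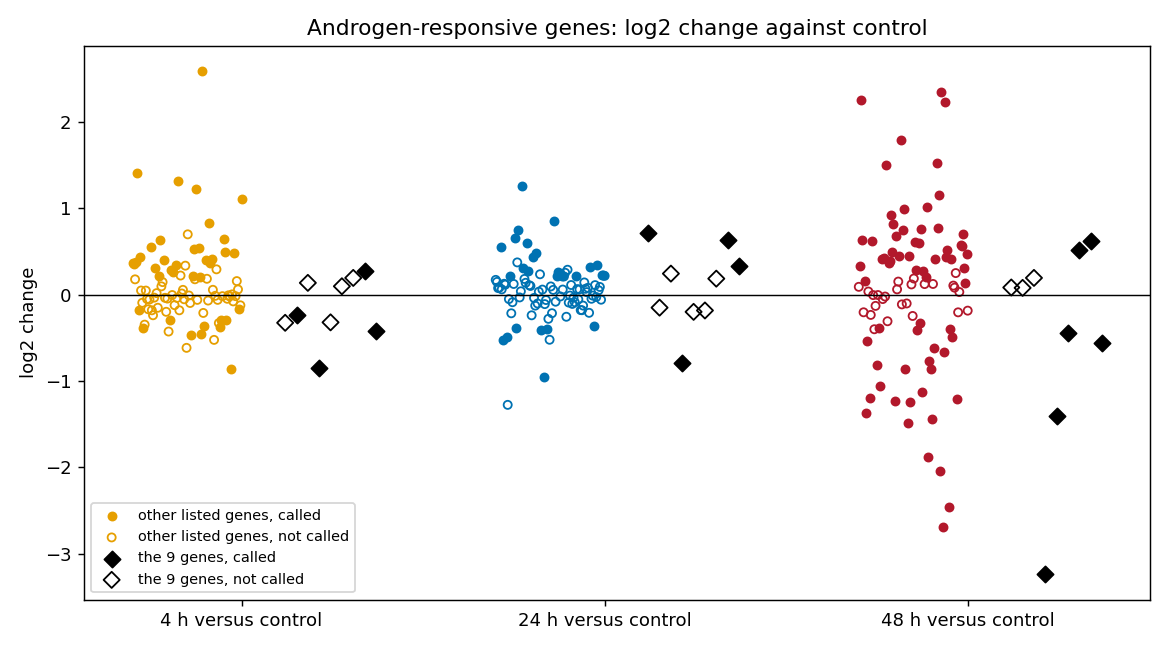
Log2 change (y axis) against control at 4, 24 and 48 h (x axis) for the 92 other listed androgen-responsive genes (circles, in alphabetical order from left to right within each time) and the 9 genes (diamonds, in the order FKBP5, ELL2, ZBTB10, SLC45A3, STEAP2, ABCC4, ACSL3, TPD52, HERC3); filled symbols have an adjusted p under 0.05. Both sets hold genes on either side of 0 at each time, and SLC45A3 at 48 h (-3.24) lies below all the circles.

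FKBP5 answers glucocorticoids as well, so glucocorticoid-responsive genes were set beside it. Of 17 tested, 9 were higher and 7 lower at 4 h. At 24 h the counts were 6 higher and 4 lower, and at 48 h 9 higher and 5 lower. Over all tested genes, the share called higher was 15% at 4 h, 12.9% at 24 h and 33.3% at 48 h, and the share called lower 13.6%, 9.39% and 33.5%. The list was chosen with earlier results of these data known. Whether it differed from all tested genes was not tested, so its counts are no result about glucocorticoid-responsive genes. Against control FKBP5 was called at 24 h and not at 4 or 48 h. At 24 h DUSP1 (log2 change 0.61, SE 0.07) and PHLDA3 (0.37, SE 0.07) were the leading rises and NFKBIA (-0.28, SE 0.07) and CEBPD (-0.97, SE 0.23) the leading falls. At 4 h ANGPTL4 (3.74, SE 0.10) and DUSP1 (0.88, SE 0.07) rose most clearly and BIRC3 (-0.98, SE 0.10) and KLF9 (-1.22, SE 0.16) fell. At 48 h, DUSP1 (2.28, SE 0.07) and PER1 (2.70, SE 0.09) rose and ANGPTL4 (-4.49, SE 0.19) and BIRC3 (-1.33, SE 0.10) fell, while the FKBP5 libraries overlapped the controls.

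Among all tested genes outside the 9, the profiles closest to each were found by Euclidean distance over the 8 libraries in log2 CPM, centred on each gene's mean. CEP97 (distance 0.30, Pearson's r 0.96) and H2AFV (0.30, r 0.96) lay closest to FKBP5. HERC3 was nearest to ZNF367 (distance 0.17, r 0.99) and the histone variant gene H2AFZ (0.17, r 0.99), TPD52 to the glycolytic gene ENO1 (0.19, r 0.97) and EDARADD (0.22, r 0.96), and STEAP2 to TMEM170B (0.23, r 0.99) and CELSR1 (0.24, r 0.99). SLC45A3 had the most distant neighbours, C6orf192 (0.48, r 0.99) and ANKRD5 (0.53, r 0.99). ABCC4 was nearest to HIRA (0.11, r 0.98) and EMILIN2 (0.12, r 0.98), ACSL3 to NAA15 (0.12, r 0.98) and ZFR (0.13, r 0.97), ELL2 to PEX2 (0.11, r 0.95) and ATXN10 (0.11, r 0.96), and ZBTB10 to INO80D (0.21, r 0.96) and ZMAT1 (0.24, r 0.94). Among the 9 genes the pair with the smallest distance was ACSL3 and ELL2, at 0.53, but their r was only 0.38. Distances are small between genes that both vary little, and at 4 h these changed by 0.19 and -0.23 from control. The pair with the highest r was SLC45A3 and STEAP2 (r 0.97, distance 1.63). The outside neighbours were picked as the nearest of all other tested genes, so their closeness does not show whether the 9 share a profile. The 8 libraries fall into 4 groups, and the coefficients describe them and carry no test.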

How the data were processed

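Total RNA from U87MG cells was sequenced in 8 libraries, 2 per group, and gene counts were deposited for each. Per the submitters' processing notes, Bowtie and the human build hg19 (GRCh37) were used. No source used here names the counting tool or says how strand was treated. The deposited counts were whole numbers per gene symbol, with no normalization. In all, 28 symbols had been turned into dates, holding 0.191 to 0.224% of counts. They were left as they stood.

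Genes were filtered with filterByExpr and tested with edgeR 4.0.16 (R 4.3.3) by the quasi-likelihood test after TMM scaling. All 8 libraries shared 1 fit with 4 residual degrees of freedom. Benjamini-Hochberg adjustment covered all genes tested, and a gene was called at an adjusted p under 0.05. The SE is the log2 change divided by the root of the F statistic. The code was tested on simulated data. DESeq2 1.42.0, limma 3.58.1, other scalings, filters and fits, and leaving out each library were the alternatives. Library totals set the counting precision. Only 2 libraries a group set the estimate of variation between libraries, which could be purely technical. Replicate numbers did not pair the libraries. Correlations of same-numbered deviations ran from -0.005 to 0.14.

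The 9 genes and all lists were chosen with earlier results of these data known. All 9 are described. From the other androgen list, the 4 genes with the smallest p per direction and time are named, and from the glucocorticoid list 2. Some genes that this rule names are not reported here. Exon lengths came from GENCODE (GRCh38) and promoters from RefSeq (GRCh38.p14).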

Additional observations from a re-analysis of the deposited data

Results flagged for a closer look

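The change from control differed for 4 of the 9 genes between 4 and 24 h and for 7 between 24 and 48 h. The test was edgeR's quasi-likelihood test of the difference itself. The change at 24 h minus that at 4 h was 1.04 for FKBP5, 0.75 for HERC3, 0.36 for TPD52 and -0.28 for ABCC4 on the log2 scale. The change at 48 h minus that at 24 h was -2.45 for SLC45A3, -1.20 for STEAP2, -0.90 for HERC3, -0.63 for FKBP5 and -0.26 for ABCC4, and 0.33 for ACSL3 and 0.23 for ELL2. Adjusted p lay between 3.91e-06 and 0.00671. Over all tested genes, 21.2% were called higher and 20.3% lower at 24 h against 4 h, and 31.5% higher and 35.3% lower at 48 h against 24 h, so differences between times were common. The control level cancels out of these differences.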

How the results depend on the processing

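The replicate block left the number of the 9 genes called at 4, 4 and 6 at 4, 24 and 48 h against control, 4 at 24 h against 4 h and 7 at 48 h against 24 h, and changed no call among them. It called 40, 29 and 69 of the other androgen list. limma-voom changed no call among the 9 either. At 24 h, 8 of the 9 were called in a fit of only the groups compared, and 8 without the 48 h libraries. In both of these fits the other androgen list rose to 34 called at 24 h, from 26. The share of all tested genes called in them was not counted. Requiring a log2 change of at least 1 left 0 of the 9 at 4 h and 0 at 24 h, 2 at 48 h, 1 at 24 h against 4 h and 2 at 48 h against 24 h. In the other androgen list it left 5, 1 and 21 at 4, 24 and 48 h against control. The share of all tested genes that passed this requirement was not counted, so these numbers are no result about either list. Leaving out 1 library gave 1 to 6 of the 9 at 4 h and 1 to 7 at 24 h, and 23 to 49 and 12 to 37 of the other list. The cause was not tested.

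Signs turned for changes near 0. Scaled by library totals, the 48 h change was -0.19 for FKBP5, -0.20 for ELL2 and -0.0812 for ZBTB10. ELL2 at 48 h was -0.00416 with a filter of 5 CPM in 2 libraries, under which SLC45A3 was not tested. TPD52 at 48 h against 24 h was 0.0285 in DESeq2, 0.0285 with DESeq2 size factors and 0.00356 in the fit of only the groups compared. ACSL3 at 24 h against 4 h was 0.0120 without a filter. Over the fits that left out 1 library, FKBP5 at 48 h ran from -0.0571 to 0.22, and ZBTB10 from -0.10 to 0.42 at 4 h and -0.18 to 0.50 at 48 h. At 24 h against 4 h, SLC45A3 ran from -0.0846 to 0.25, ACSL3 from -0.0414 to 0.0278 and ZBTB10 from -0.0796 to 0.30. At 48 h against 24 h, TPD52 ran from -0.0879 to 0.0617 and ZBTB10 from -0.43 to 0.26. With 5 and 9 counts at 48 h, depth limits the size of the SLC45A3 change.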
